A study of Mus musculus with 6 samples.

Results

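The D-type cyclins, their kinases Cdk4 and Cdk6, the retinoblastoma (RB) family and the E2F transcription factors control the step from G1 into S phase of the cell cycle. Of the 55571 gene entries of the deposited count table, 10 were chosen by name from this pathway, namely Ccnd1, Ccnd2, Ccnd3, Cdk4, Cdk6, Rb1, Rbl1, E2f1, E2f2 and E2f8. They were measured by RNA sequencing in E0771, a mouse mammary carcinoma cell line. The vector control group (3 libraries) carried an empty vector, and the Malt1-WT group (3 libraries) expressed wild-type Malt1, a paracaspase that acts upstream of NF-kB. Both groups are the same line, and no stimulus is named for either. The sources used here do not say which promoter drove Malt1, or whether the cells were clones or pools.

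In Malt1-WT, 6 of the 10 genes were lower, 2 were higher and 2 did not pass the test (edgeR quasi-likelihood test, Benjamini-Hochberg adjusted p under 0.05). Of 13594 genes tested, 30.2% were lower, 31% were higher and 61.2% were called in either direction, so a call alone sets no gene apart here. E2f8 fell most and Ccnd1 next. Rbl1 and E2f2 fell less, Ccnd3 and Cdk6 slightly, while Ccnd2 and Rb1 rose. Cdk4 and E2f1 were not called. For 9 of the 10 genes the CPM ranges of the groups did not overlap, with Malt1-WT higher in 2 and lower in 7. Over all tested genes this held for 64.4%, 32.4% as higher and 32% as lower. The median log2 fold change of the 10 genes was -0.17, against -0.0029 over all tested genes.

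As background, cyclins D1, D2 and D3 bind and activate CDK4 or CDK6 in response to growth signals. The active kinases phosphorylate RB and its relatives p107 and p130, which otherwise hold E2F factors in check. Released activator E2Fs switch on genes for DNA replication and further cyclins, and the atypical repressors E2F7 and E2F8 later turn many of the same genes down. Genes for several E2Fs and for p107 are themselves known E2F targets. Cyclin D1 and this kinase axis are well studied in mammary epithelium and breast cancer, where CDK4/6 inhibitors are used as drugs.

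Total counts were 17601656 to 20543778 per library. The Malt1 transcript served as a check of the labels, whose counts in vector control replicates 1 to 3 were 517, 633 and 611, against 5526, 6176 and 5087 with Malt1-WT. Among 7 epithelial markers the keratin gene Krt8 averaged 68.6 ± 2.31 CPM in vector control libraries against 59.7 ± 1.83 CPM with Malt1-WT (SD, n = 3 each), Epcam was near 6.3 CPM, and Krt18, Krt19, Krt7, Cdh1 and Cldn7 had at most 9 counts in a library. CPM are counts relative to a common library total after TMM scaling. The 8 leukocyte markers summed to 4.8 to 5.79 CPM in the vector control and 15.9 to 18.3 CPM in Malt1-WT, with Tyrobp at 0 and Ptprc at no more than 3 counts in each library. Of the 3 that could be tested, Cd68 (4.48 ± 0.549 to 14.4 ± 1.21 CPM, SD, n = 3, edgeR adjusted p = 8.5e-17) and Adgre1 (0.0532 ± 0.0553 to 1.47 ± 0.257 CPM, adjusted p = 1.97e-09) were called higher. Summed levels of the 5 fibroblast markers were 195 to 207 CPM in vector cells and 138 to 150 CPM with Malt1, of which Pdgfra made up most, and the 3 endothelial markers summed to 4.58 to 5.7 and 10.2 to 10.8 CPM. The part of these shifts in the results was not tested. In bulk RNA, fewer cells with a transcript and less of it per cell cannot be told apart. The labels do not state whether replicate libraries stem from separate cultures, so every p-value measures the spread among these libraries, which may be technical.

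The 3 D cyclin genes changed in different directions. Ccnd1 (chromosome 7, 144929931 to 144939925, minus strand, GRCm38) encodes cyclin D1. It was at 265, 256 and 260 CPM in vector control replicates 1 to 3 and at 141, 146 and 147 CPM in Malt1-WT replicates 1 to 3. The Malt1-WT libraries lay close together and all far below the vector control. Ccnd1 fell by 44.5%, a log2 fold change of -0.85 (SE 0.0335, 95% interval -0.92 to -0.78, edgeR adjusted p = 4.78e-28). Ccnd2 (chromosome 6, 127125162 to 127152193, minus strand) encodes cyclin D2. It went from 405, 400.1 and 419 CPM to 580.2, 593 and 568 CPM. Here every Malt1-WT library was above every vector control library. The log2 fold change was 0.51 (SE 0.0287, 95% interval 0.45 to 0.57, edgeR adjusted p = 1.54e-21), which is 1.42-fold. Ccnd3 (chromosome 17, 47505051 to 47599691, plus strand), the gene of cyclin D3, changed least of the 3. It went from 103, 107 and 109 CPM to 86.1, 97.5 and 96.3 CPM (log2 fold change -0.18, SE 0.0433, edgeR adjusted p = 2.36e-04). Its groups did not overlap, though Malt1-WT replicate 1 lay apart from the other two, and a difference of this size was smaller than that of 66.7% of all tested genes.

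**Figure D1:**
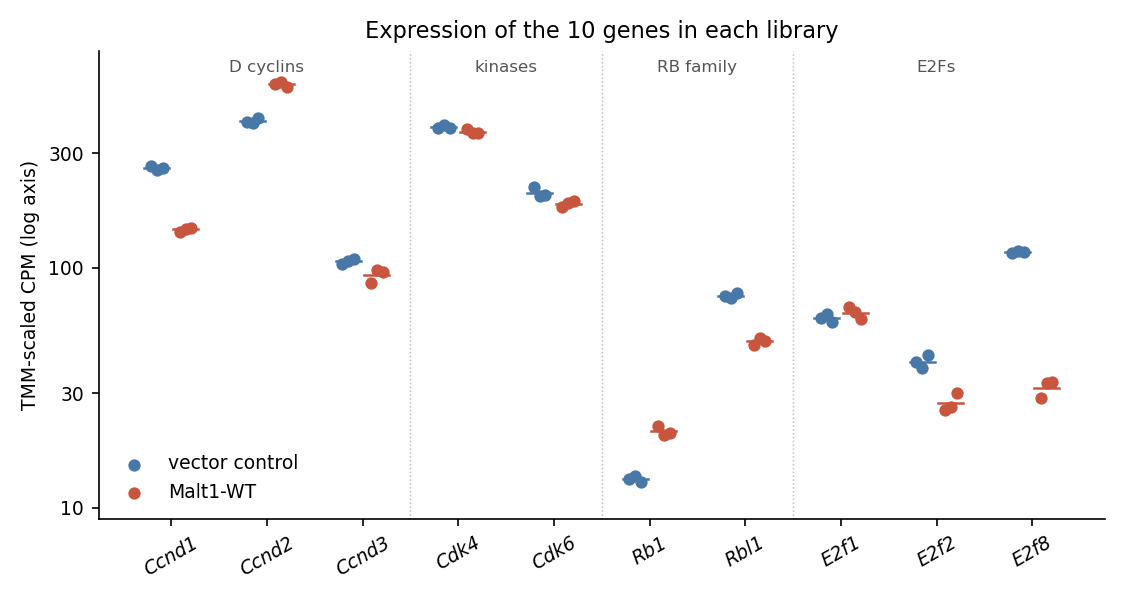
TMM-scaled CPM (log axis) of the 10 genes in each of the 3 vector control (blue) and 3 Malt1-WT (red) libraries, with the group mean as a line. E2f8 has the widest gap, at 116 against 31.7 CPM on average, Ccnd2 and Rb1 are higher in Malt1-WT, and E2f1 is the gene whose groups overlap.

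To compare levels between genes, CPM were divided by the length of all annotated exons of each gene in kilobases. On this scale Ccnd1 was the leading D cyclin gene in the vector control, at 55.3 ± 0.947 CPM per kilobase, followed by Ccnd2 at 43.4 ± 1.02 and Ccnd3 at 12.1 ± 0.312 (SD, n = 3). In Malt1-WT the order of the first pair was turned round, with Ccnd2 at 61.7 ± 1.37 CPM per kilobase and Ccnd1 at 30.7 ± 0.634, while Ccnd3 was at 10.6 ± 0.712. In CPM not divided by length, Ccnd2 was above Ccnd1 in both groups (408 against 260 in the vector control). With the longest transcript as length, Ccnd1 was at 69.6 and Ccnd2 at 64.5 CPM per kilobase in the vector control. The share of Ccnd1 in the summed D cyclin level was 50.7%, 49.9% and 49.3% in the vector control, against 29.5%, 29.4% and 30.4% in Malt1-WT. Between the group means it was thus 20.1 percentage points lower in Malt1-WT, and every Malt1-WT library lay below every vector control library. The share of Ccnd2 went from 39.2% ± 0.485 to 59.9% ± 0.968 (SD, n = 3), and that of Ccnd3 from 10.9% ± 0.300 to 10.3% ± 0.563. For the Ccnd1 and the Ccnd2 share the two-sided exact permutation test gave p = 0.1, the smallest that 3 against 3 libraries allow, and for the Ccnd3 share p = 0.3 (exact). The Ccnd3 share difference of -0.593 percentage points was -1.37 with the longest transcript as length and -0.271 without Malt1-WT replicate 1. Summed over the 3 genes, the level was 111.1, 109 and 112 CPM per kilobase in the vector control, against 101, 105 and 103 in Malt1-WT. All Malt1-WT sums lay below the vector control sums, by 7.76 CPM per kilobase between the means (exact permutation p = 0.1), so the mean sum fell by 7.01%. Scaled by library size only, the difference was -13.4 CPM per kilobase, and it was -7.08 with the longest transcript as length. In CPM not divided by length, the gain of Ccnd2 (408 to 580) outweighed the losses of Ccnd1 (260 to 144.5) and Ccnd3 (106 to 93.3). The fall of the sum thus holds only on the per-length scale.

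**Figure D2:**
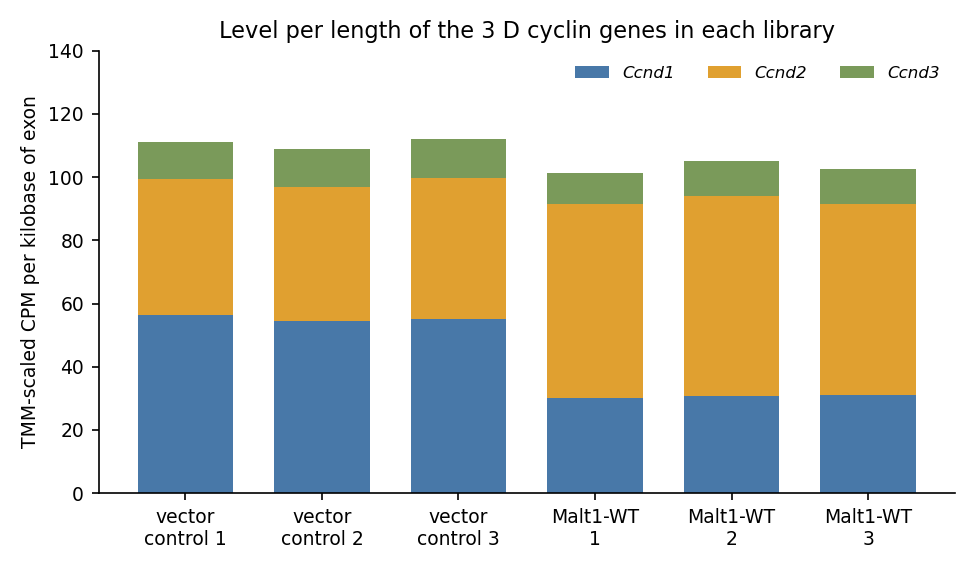
TMM-scaled CPM per kilobase of exon of Ccnd1, Ccnd2 and Ccnd3, stacked, in each library. The stacks are 109 to 112 high in the vector control and 101 to 105 in Malt1-WT, while the Ccnd1 share falls from about 49.9% to 29.8% and the Ccnd2 share rises from 39.2% to 59.9%.

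Transcripts of the 2 partner kinases moved little. Cdk4 (chromosome 10, 127063534 to 127067920, plus strand), the kinase gene with the highest level per length of the 10 genes, had 379.8, 392 and 383 CPM against 378, 365 and 363 CPM with Malt1-WT. The groups were apart only narrowly. The log2 fold change was -0.06 (SE 0.0296, 95% interval -0.12 to -0.0022) and the edgeR adjusted p was 0.0673, so Cdk4 was not called. It was called lower after upper quartile scaling (adjusted p = 0.0156) or scaling by library size alone (5.04e-05), and without vector control replicate 1 (0.0347) or Malt1-WT replicate 1 (0.0156), and its edgeR, limma-voom and DESeq2 adjusted p reached 0.199 under the others, leaving aside the test against a 1.5-fold change (adjusted p = 1). Cdk6 (chromosome 5, 3341485 to 3531008, plus strand) was at 217, 198 and 199.8 CPM against 178, 186 and 189 CPM. Its groups did not overlap, and its mean fell by 9.91% (log2 fold change -0.15, SE 0.0357, edgeR adjusted p = 2.74e-04). Per length, Cdk4 made up 89.0% ± 0.617 of Cdk4 plus Cdk6 in the vector control and 89.6% ± 0.492 in Malt1-WT (SD, n = 3), a difference of 0.59 percentage points (exact permutation p = 0.4). The libraries of both groups overlapped in this share, and the difference was 0.246 without vector control replicate 1 and 0.315 without Malt1-WT replicate 1.

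The 2 RB family genes went opposite ways. Rb1 (chromosome 14, 73183673 to 73325822, minus strand) encodes RB itself. It went from 239, 277 and 258 counts to 393, 404 and 350 counts, or 13.2, 13.6 and 12.8 CPM against 22.0, 20.2 and 20.5 CPM. All Malt1-WT libraries were higher, with a log2 fold change of 0.66 (SE 0.0874, 95% interval 0.48 to 0.83, edgeR adjusted p = 4.73e-09), which is 1.58-fold. It has the fewest counts of the 10 genes and the widest interval. Rbl1 (chromosome 2, 157145893 to 157204534, minus strand), the gene of the RB relative p107, was at 76.5, 74.7 and 78.4 CPM against 47.8, 51.1 and 49.4 CPM. The groups were well apart, and the mean fell by 35.4% (log2 fold change -0.63, SE 0.0491, 95% interval -0.73 to -0.53, edgeR adjusted p = 3.44e-16). Per length, Rbl1 stood at 12.8 ± 0.306 and Rb1 at 2.20 ± 0.0641 CPM per kilobase in the vector control, against 8.25 ± 0.271 and 3.47 ± 0.161 in Malt1-WT (SD, n = 3). Rbl1 was thus the higher of both in each group, by less in Malt1-WT.

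The 3 E2F genes ranged from a large fall to no call. E2f8 (chromosome 7, 48866429 to 48881596, minus strand) encodes an atypical repressor E2F. It was at 115.5, 117 and 116 CPM in the vector control and at 28.6, 33.0 and 33.4 CPM in Malt1-WT. The vector control libraries were almost equal, and no Malt1-WT library came near them. The log2 fold change was -1.87 (SE 0.0508, 95% interval -1.98 to -1.77, edgeR adjusted p = 4.2e-35), a 3.67-fold fall. A larger absolute change was found in 4.42% of all tested genes, and 4.77% of tested genes were called and at least 2-fold lower, as E2f8 was alone among the 10. E2f2 (chromosome 4, 136172394 to 136196057, plus strand), an activator E2F gene, was at 40.4, 38.2 and 43.1 CPM against 25.6, 26.4 and 30.2 CPM. Its groups did not overlap, with a log2 fold change of -0.57 (SE 0.0679, 95% interval -0.71 to -0.43, edgeR adjusted p = 2.75e-10). E2f1 (chromosome 2, 154559407 to 154569892, minus strand), the other activator E2F gene here, was at 61.7, 64.2 and 59.2 CPM against 68.2, 65.7 and 61.2 CPM. These ranges overlapped, and the log2 fold change of 0.08 (95% interval -0.03 to 0.18) did not pass (edgeR adjusted p = 0.194). Over the alternatives other than the test against a 1.5-fold change its adjusted p went from 0.0856 to 0.993, and its sign turned with library size only (-0.00052).

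**Figure D3:**
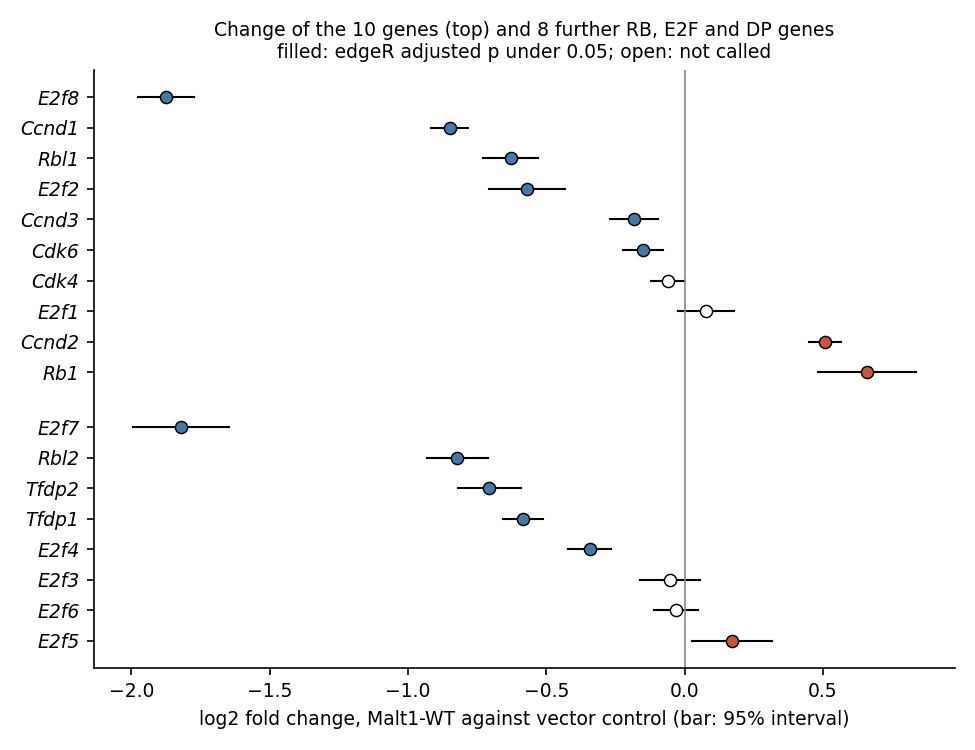
Log2 fold change of Malt1-WT against vector control with its 95% interval, for the 10 genes (top) and 8 further RB, E2F and DP genes (bottom). Filled points passed an edgeR adjusted p under 0.05. E2f8 (-1.87) and E2f7 (-1.82) lie far to the left of all others shown, and the intervals of E2f1, E2f3 and E2f6 span 0.

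The promoters of the 3 genes of the RB and E2F group that fell are shown because E2F factors and the DREAM repressor complex are known to act on such genes through short DNA words near the start site. RefSeq promoter windows (GRCm38.p6, 250 bases before to 50 after an annotated start) were found for 7 of the 10 genes. They were searched on both strands for the E2F words TTTCCCGC, TTTCGCGC, TTTGCCGC and TTTGGCGC, and for TTTGAA, the core of the cell cycle homology region (CHR). The words overlap with no other word searched at the places found. For E2f8 and Rbl1 the 120 bases before the start are printed, and for E2f2 bases 21 to 50 after it, all 5′ to 3′ on the gene's strand (minus for E2f8 and Rbl1, plus for E2f2), with the matched word in capitals.
E2f8 chr7:48881597-48881716: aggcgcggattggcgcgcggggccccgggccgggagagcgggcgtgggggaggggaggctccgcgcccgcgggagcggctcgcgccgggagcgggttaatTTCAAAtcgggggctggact
Rbl1 chr2:157204535-157204654: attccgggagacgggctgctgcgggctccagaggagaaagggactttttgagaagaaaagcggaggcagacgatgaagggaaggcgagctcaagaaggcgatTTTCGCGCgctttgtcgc
E2f2 chr4:136172294-136172323: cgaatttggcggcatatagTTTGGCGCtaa
In E2f8, the capitals are TTTGAA read on the opposite strand, 20 to 15 bases before the start. Rbl1 holds TTTCGCGC at 18 to 11 bases before the start, and E2f2 holds TTTGGCGC at 40 to 47 bases after its RefSeq start, which lies 120 bases upstream of the GENCODE 5′ end. A second E2f2 window holds TTTGAA 31 to 26 bases before a start 8388 bases inside the gene as GENCODE annotates it. None of the words occurs in the windows of E2f1, Cdk4, Cdk6 or Ccnd3. The E2f1 and Cdk6 windows are set on starts 466 and 2408 bases downstream of the GENCODE 5′ ends of these genes, so neither covers the bases before that end. Of 32851 windows of the same length, 2.26% hold 1 of the E2F words, 0.323% hold TTTCGCGC, 0.514% hold TTTGGCGC and 17.9% hold TTTGAA. Only exact words were searched, so similar words that differ by a base were not counted, and a window without a match may hold them. A match describes the sequence, and binding was not measured.

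How unequally members changed was described by log2 ratios of counts within a library, which do not depend on library scaling. The pairs come from members chosen with earlier results of these data known, so their lack of overlap is no separate support. With 3 against 3 libraries the exact test cannot go below 0.1, so it cannot decide the question. The ratio of E2f8 to E2f1 was 0.90, 0.86 and 0.97 in the vector control, against -1.25, -0.99 and -0.87 in Malt1-WT. E2f8 thus had more counts than E2f1 in each vector control library and fewer in each Malt1-WT library, a difference of -1.95. That of E2f2 to E2f1 fell by 0.64, that of Rbl1 to Rb1 by 1.29 and that of Ccnd1 to Ccnd3 by 0.66 on the log2 scale. For all 4 ratios no library of one group overlapped the other group, and the two-sided exact permutation p was 0.1, the smallest possible (0.125 adjusted over the 5 ratios computed). The ratio of Cdk4 to Cdk6 was 0.91 ± 0.0903 in the vector control and 1.00 ± 0.0768 in Malt1-WT (SD, n = 3, exact permutation p = 0.4, adjusted p = 0.4), a difference of 0.09 with library ranges that overlapped.

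The order of the 10 genes by level per length also differed between the groups. Cdk4 led in both, at 118 ± 1.94 CPM per kilobase in the vector control and 113.5 ± 2.58 in Malt1-WT (SD, n = 3), and Rb1 was last in both. E2f8 came next after Cdk4, Ccnd1 and Ccnd2 in the vector control, at 21.3 ± 0.130 CPM per kilobase, just above E2f1 at 19.6 ± 0.794. In Malt1-WT it was at 5.82 ± 0.482, with libraries that overlapped those of E2f2 (5.61 ± 0.501), and E2f1 at 20.6 ± 1.13 was the leading E2F gene among the 10. All other neighbours in either order had library ranges that did not overlap. These levels depend on the lengths used. With the longest transcript in place of all exons, Ccnd3 moved from 12.1 to 27.5 CPM per kilobase in the vector control and then stood above Cdk6 (17.8) and E2f1 (22.4).

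Genes on the opposite strand share exon bases with several of the 10. The share is 23.4% of the exon bases for Ccnd1 (with LTO1) and 19.7% for Cdk4 (with Tspan31), and below 12% with any 1 gene for Ccnd2, Ccnd3, Cdk6, Rb1 and E2f8. Whether strand was used in the counting is unknown from the sources used here. LTO1 had 186 to 252 counts in any library, against at least 2511 for Ccnd1. Tspan31 went from 1305, 1429 and 1490 counts to 1784, 1919 and 1736, and was called higher (log2 fold change 0.46, edgeR adjusted p = 2.73e-13), while Cdk4 had 6198 to 7978 counts. Rcbtb2, which overlaps Rb1 over 8.11% of its exon bases, went the other way from Rb1, with a log2 fold change of -0.52 (edgeR adjusted p = 1.03e-08). Lpar6, which overlaps Rb1 over 6.78%, had 108 to 150 counts in any library and was at 0.24 (edgeR adjusted p = 0.117). Gm2788, which overlaps E2f8, had at most 12 counts.

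The other members of the same families were described from a list of 8 genes, of which 5 were lower, 1 was higher and 2 did not pass (median log2 fold change -0.46). Of all tested genes 30.2% were lower and 61.2% were called in either direction. E2f7, the second atypical repressor gene, fell by 1.82 (log2, SE 0.0859, edgeR adjusted p = 9.76e-25), from 33.0 ± 1.39 to 9.33 ± 0.749 CPM (SD, n = 3), beside -1.87 for E2f8. Rbl2, the gene of the third RB family protein p130, fell by 0.82 (62.8 ± 0.952 to 35.5 ± 0.959 CPM). The DP proteins are the partners with which E2Fs bind DNA, and their genes Tfdp2 (-0.71) and Tfdp1 (-0.58) fell as well, as did the repressor gene E2f4 (-0.34). E2f5 was called higher at 0.17 (edgeR adjusted p = 0.0339). This call was lost with upper quartile scaling (adjusted p = 0.0586), library size only (0.247), no filter (0.075) or DESeq2 (0.0783), and without vector control replicate 1 (0.207) or 3 (0.0835) or Malt1-WT replicate 2 (0.0936) or 3 (0.175). The activator gene E2f3 was at -0.05 and E2f6 at -0.03, and neither passed, although both were called lower with library size only (adjusted p = 0.0333 and 0.0182). Among the 18 genes of both lists, E2f8 and E2f7 were the only ones that fell by more than 2-fold.

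The 30 listed genes known as E2F targets at the G1/S step were all lower, with log2 fold changes from -2.06 to -0.20 and a median of -0.75. The median of all tested genes was -0.0029, and 30.2% of them were called lower. Examples are the cyclin A gene Ccna2 (-2.06, 332 ± 8.71 to 79.9 ± 2.59 CPM, SD, n = 3), the thymidine kinase gene Tk1 (-1.65) and the ribonucleotide reductase genes Rrm2 (-1.47) and Rrm1 (-1.19). The list was chosen with earlier results of these data known, and it leaves out the E2F genes, several of which are known E2F targets. Of the E2F genes, E2f2 (-0.57), E2f4 (-0.34), E2f7 (-1.82) and E2f8 (-1.87) were lower. E2f1 (0.08), E2f3 (-0.05) and E2f6 (-0.03) did not pass, and E2f5 (0.17) was called higher. Of 8 genes of the cyclin E, cyclin A and CDK2 step, 5 were lower, 1 was higher and 2 did not pass (median -0.29, beside 30.2% lower and 31% higher over all tested genes), and 4 of them are also counted among the E2F targets. Ccne1 (-0.68), the gene of cyclin E1, Cdk2 (-0.51) and Cdc25a (-0.38), which encodes the phosphatase that activates CDK2, fell. The CDK-activating kinase gene Cdk7 was called higher at 0.14 (edgeR adjusted p = 0.0234). That call was lost with library size only (adjusted p = 0.307), no filter (0.0659) or DESeq2 (0.0514), and without vector control replicate 1 (0.144) or Malt1-WT replicate 3 (0.127). Mnat1 (-0.11) and Ccnh (0.02) did not pass. Mnat1 was called lower without vector control replicate 3 (adjusted p = 0.0141) or Malt1-WT replicate 3 (0.00312), with library size only (0.0143) and with no filter (0.0495).

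Subunits and partners of the MuvB complex and of DREAM, which joins RB family proteins to cell cycle promoters, counted 5 lower genes of 7 and no higher one. Their median was -0.42, where 30.2% of all tested genes were lower and 61.2% were called. Mybl2 is also counted among the E2F targets. Foxm1, which drives G2/M genes, fell by 1.78 (log2; mean 199 ± 7.64 against 57.9 ± 5.29 CPM, SD, n = 3), Mybl2 by 0.72, Lin54 by 0.49, Lin52 by 0.42 and Rbbp4 by 0.19. Lin37 (0.17) and Lin9 (-0.04) did not pass. Of the 7 CDK inhibitor genes 5 could be tested, and 1 was higher and 2 lower (31% and 30.2% over all tested genes). Cdkn1a, the gene of p21, rose by 3.42 on the log2 scale, while the CDK4/6 inhibitor genes Cdkn2c (p18) fell by 1.81 (93.1 ± 3.92 to 26.5 ± 0.353 CPM, SD, n = 3) and Cdkn2d (p19) by 0.50. Cdkn1b (0.06) and Cdkn1c (-0.26) did not pass. The 2 other INK4 genes, Cdkn2a and Cdkn2b, had 0 counts in all 6 libraries. A count of 0 allows up to 3 counts, or 0.147 to 0.175 CPM in a library.

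Genes acting on the D cyclins were mixed. In the list for cyclin D turnover, 3 of 6 genes were higher and 1 was lower (median 0.06), where 31% of all tested genes were higher and 61.2% were called in either direction. The chaperone gene Cryab was called higher at 1.88 but rests on few counts, 13, 11 and 16 against 43, 62 and 35. Ambra1, which encodes the ubiquitin ligase receptor for D cyclins, was higher at 0.18 and the kinase gene Gsk3b at 0.12. Gsk3b was not called with library size only (adjusted p = 0.23). The F-box gene Fbxo31 was lower at -0.39, and Fbxo4 (-0.0071) and Fbxw8 (0.0028) did not pass. Among 10 genes known to act upstream of cyclin D transcription, 8 were higher, 1 was lower and 1 did not pass (median 0.60), against the same background. Egfr, the EGF receptor gene (1.54, 4.24 ± 0.675 to 12.3 ± 0.412 CPM, SD, n = 3), the AP-1 genes Fosl1 (1.31) and Jun (1.05) and the NF-kB subunit gene Nfkb1 (1.15) rose most. Tcf7l2 was the gene that fell (-0.39), and Stat5a (-0.15) did not pass, but was called lower without Malt1-WT replicate 2 (adjusted p = 0.0499) and with library size only (0.0196). Ccnd1 fell and Ccnd2 rose in the same libraries.

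**Figure D4:**
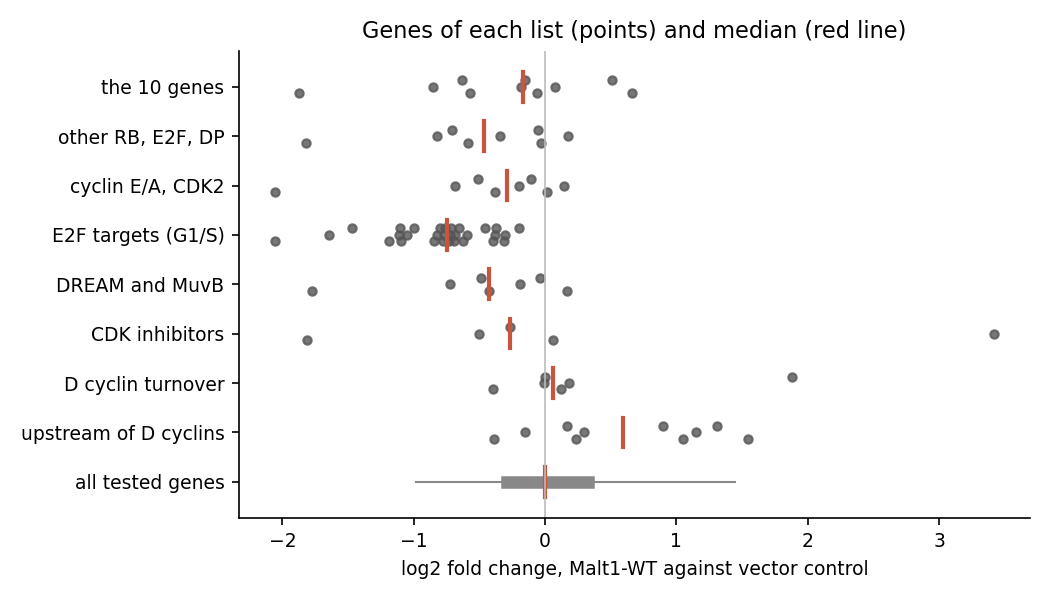
Log2 fold change of Malt1-WT against vector control for each tested gene of the 8 lists (points; red line, median). At the bottom, all 13594 tested genes are shown by their median, a thick bar from the 25th to the 75th percentile (-0.29 to 0.33) and a thin line from the 5th to the 95th (-0.98 to 1.45). The E2F targets, a list that leaves out the E2F genes themselves, are the list with all points below 0.

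A stricter question is which of the 10 genes changed by more than 1.5-fold. In an edgeR test against a 1.5-fold change, 2 of the 10 passed, E2f8 (adjusted p = 4.54e-29) and Ccnd1 (adjusted p = 2.42e-10), both lower. Of all tested genes 16.6% passed this test, 6.33% as lower and 10.2% as higher. Rb1 (adjusted p = 0.344) and Rbl1 (0.318), whose estimated changes are 1.58-fold and 1.55-fold, did not. In the authors' deposited table, E2f8 is the 1 gene of the 10 with an adjusted p under 0.05 (log2 fold change -1.89, adjusted p = 0.00117), where 1.13% of the 55571 entries pass. The other 9 genes have absolute log2 fold changes below 1 there, and the t statistic in the authors' deposited table is 0 for all 50005 such entries. It is 0 for 0 of the 5566 entries at or over 1. An entry below 1 could thus not pass there, so the lack of a call for these 9 genes does not bear on their changes here. The 1.13% is taken over all entries, without the filter on low counts used here.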

How the data were processed

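RNA was sequenced from 6 libraries of E0771 cells, grouped by the sample titles. Per the submitters' processing notes, reads were trimmed with Trim Galore 0.6.0, aligned with STAR 2.7.3a to GRCm38.p6 (mm10) and counted with featureCounts 1.6.3. Per the labels' protocols, a directional library kit and paired-end sequencing were used. The authors deposited raw counts per gene and library, and from their own comparison a log2 fold change, a mean log2 expression, a score (t statistic), a p-value and an adjusted p-value. No source used here names the tool behind these. Libraries were 17601656 to 20543778 counts deep, which limits precision mainly for genes with few counts.

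Counts were fitted with edgeR 4.0.16 in R 4.3.3 (filterByExpr with a minimum count of 10, TMM, robust quasi-likelihood, no block), on the whole table, and p-values were adjusted over 13594 genes. All 10 members passed the filter. The SE is the log2 fold change divided by the square root of the F statistic. Replicates differed beyond sampling noise (chi-square per degree of freedom 2.13 to 2.87). Exon lengths came from GENCODE M21 (GRCm38), promoters from RefSeq (GRCm38.p6). Exact permutation tests used SciPy 1.17.1. Alternatives were other scalings, filters, DESeq2 1.42.0, limma-voom (limma 3.58.1), a test against a 1.5-fold change, a replicate block, leaving out each library, and another gene length.

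The 10 members and the gene lists were chosen with earlier results of these data known. Named are all members, Malt1, the up to 4 called genes with the largest change of each list, and, chosen after their values were seen, further called and uncalled genes of the lists (among them E2f4, E2f5, Rbbp4, Cdk7 and Tcf7l2), markers and the genes that overlap a member.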

Additional observations from a re-analysis of the deposited data

How the results depend on the processing

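Across the 14 alternatives other than the test against a 1.5-fold change, 6 or 7 of the 10 genes were called lower and 2 higher, and all 10 kept their direction except E2f1 (-0.00052 with library size only). The 7th gene was Cdk4, called in 4 of them. In the test against a 1.5-fold change 0 of the 10 were higher and 2 lower, and 2250 of all genes were called in place of 8320. Among the lists, 18 of 30 E2F targets, 3 of 8 other family genes, 2 of 7 DREAM and MuvB genes, 1 of 8 genes of the CDK2 step, 1 CDK inhibitor gene and 0 turnover or upstream genes were lower in it, and 5 upstream genes, 1 turnover gene and 1 CDK inhibitor gene higher, where 6.33% of all tested genes were lower and 10.2% higher. That test asks for a larger change by its construction. With the replicate number as a block, 8168 genes were called, 2 of the 10 higher and 6 lower, the same numbers of members as without it. Same-numbered libraries did not deviate together (correlations -0.0261, -0.0207 and 0.0174), so the numbers are not taken as pairs. Leaving out 1 library gave 7878 to 8074 called genes.

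The Malt1-WT minus vector control difference in summed D cyclin level was -7.76 CPM per kilobase. It was -13.4 with library size only, -7.08 with the longest transcript as length and -8.79 to -6.99 with 1 library left out. That in the Ccnd1 share was -20.1 percentage points, and -18.1 with the longest transcript as length. Library size only moved the median log2 fold change of all genes to -0.079 and the share of higher among called genes from 50.6% to 41.3%. Genes near 0 changed sign. With library size only these were, besides E2f1 (-0.00052), Cdkn1b (-0.013), Ccnh (-0.058) and Fbxw8 (-0.073). With upper quartile scaling they were Ccnh (-0.00019) and Fbxw8 (-0.015), and without a filter Fbxw8 (-0.0095). With 1 library left out, values spanned 0 for E2f3 (-0.108 to 0.00047), E2f6 (-0.0581 to 0.0029), Cdkn1c (-0.608 to 0.0019), Lin9 (-0.160 to 0.0388), Fbxo4 (-0.0957 to 0.0963), Ccnh (-0.0173 to 0.0459) and Fbxw8 (-0.0288 to 0.0253). Of these genes 0 were called in the fit reported.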
